A study of Homo sapiens with 9 samples.

Results

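EFR3B and its partners EFR3A, PI4KA, TTC7A and TTC7B are the genes described here, of 14884 genes named on the array. EFR3B was chosen by its log2 difference from control, the highest of all named genes after JQ1, together with the genes of the membrane complex that its protein belongs to. The members were found by symbol in the platform's gene table. Of the 5 members 4 had a row, and each of these had 1 row (EFR3B, NCBI gene 22979; EFR3A, 23167; TTC7A, 57217; TTC7B, 145567). PI4KA, the kinase itself, was not analysed here. Since EFR3B was chosen on its rise, its differences from control are given as a description with no test. The 3 other measured members were picked for their place in the complex and were tested in the fit across all genes.

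PI4KA makes phosphatidylinositol 4-phosphate (PI4P) at the plasma membrane, the lipid from which phosphatidylinositol 4,5-bisphosphate is made. The kinase has no membrane anchor of its own. EFR3 proteins, EFR3A or EFR3B, are anchored in the membrane through palmitoylated cysteines and recruit PI4KA through a scaffold of TTC7A or TTC7B together with a hyccin protein. PI4P made there also drives lipid exchange with the endoplasmic reticulum, and its product is split by phospholipase C during receptor signalling.

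Cultures of the MDA-MB-231 line, a breast cancer line with mesenchymal features and without estrogen receptor, were compared in 3 groups of 3 arrays. The control group received no agent and carries a time of 0 h, and the other groups received 500 nM JQ1, an inhibitor of the BET bromodomain proteins, for 12 h or for 24 h. The labels name neither a vehicle nor time-matched controls, so JQ1, its solvent and the hours in culture cannot be told apart. They also do not say whether replicates were separate cultures, so each p-value measures only how these arrays spread, and that spread may be technical. In bulk RNA, a change in the share of cells that express a gene and a change in RNA per cell cannot be told apart. Values are log2 array values, and 3 arrays a group limit the precision.

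Array medians lay between 4.92 and 4.96. Controls 1 and 2 correlated at 0.9948 over all rows of the table, whereas control 3 correlated with them at 0.9828 and 0.9832, below the 0.9899 to 0.9928 of pairs within the treated groups. For a named gene tested against control, the value without control 3 is therefore given where it crosses the threshold, turns in sign or moves by over 1.5 times. Leaving control 3 out also raised the share of all genes called, to 20.1% at 12 h and 20.9% at 24 h. Of 6 markers of the line 5 were measured (VIM, CD44, AXL, MSN and EGFR), with array means of the 5 between 10.44 and 10.64. CD44 was well below the rest, at 7.15 to 8.11, while VIM, AXL, MSN and EGFR read between 10.23 and 12.36. Of 7 luminal and epithelial markers 5 were measured, with array means between 5.81 and 5.86 in control, 5.71 and 5.79 at 12 h and 5.75 and 5.88 at 24 h. ESR1, the estrogen receptor, read between 4.81 and 5.17. GATA3 was lower after JQ1 (log2 difference −0.38 and −0.41, adjusted p = 0.03 and 0.017), EPCAM was lower at 12 h (−0.28, 0.048) and KRT8 was higher at 24 h (0.39, 0.043). Marker values without control 3 are not given here, so how far these calls rest on that array is not known. The part of these markers in the results below was not tested. Single markers of fibroblasts (DCN, 2.91 to 3.02), leukocytes (CD68, 11.42 to 11.88) and neurons (SYP, 6.31 to 6.71) were measured and did not pass the test at either time.

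The sequence just upstream of a RefSeq start was read for EFR3B, with the highest rise, and for TTC7B, the member that fell. The 250 bases before each start are printed 5′ to 3′ from RefSeq on GRCh38.p14, with the letters known as the GC box in capitals (GGGCGG, or CCGCCC where the match is on the opposite strand). The EFR3B window is chr2:25041826-25042075 on the plus strand and the TTC7B window is chr14:90816431-90816680 on the minus strand.
EFR3B: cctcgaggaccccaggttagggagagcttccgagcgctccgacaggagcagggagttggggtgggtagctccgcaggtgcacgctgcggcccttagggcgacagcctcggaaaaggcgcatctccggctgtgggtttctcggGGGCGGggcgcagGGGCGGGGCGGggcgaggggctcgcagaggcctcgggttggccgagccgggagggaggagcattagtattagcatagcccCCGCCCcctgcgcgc
TTC7B: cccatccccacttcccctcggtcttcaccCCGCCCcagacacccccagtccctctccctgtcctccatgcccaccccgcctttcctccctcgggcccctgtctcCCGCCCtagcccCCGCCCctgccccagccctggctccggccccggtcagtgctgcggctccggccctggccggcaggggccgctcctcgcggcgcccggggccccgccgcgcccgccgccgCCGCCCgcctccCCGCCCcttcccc

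The EFR3B window held 4 GC box matches, of which a pair overlap each other, and 24 CpG dinucleotides at 71.2% G and C. The TTC7B window held 5 matches and 25 CpG at 80.4% G and C. The window of TTC7A (chr2:46915616-46915865, plus strand), the member whose differences stayed small, held 4 matches and 25 CpG. At these starts the counts were thus close for the 3 genes. Whether these letters bear on their differences was not tested. At least 1 GC box match was found in 42.6% of all 35116 promoter windows of this length, whose median CpG count was 11. The TATA box, as TATAAA, was searched on both strands and was not in the windows of EFR3B, TTC7A or TTC7B, against 10.7% of all windows with a match. The CCAAT box, as its 5 letters, was absent from these windows too (32% of all windows). So was the E-box searched as CACGTG (6.34% of all windows). RefSeq lists a second EFR3B start downstream of the one printed, whose window held 1 GC box match and 37 CpG at 76.8% G and C. The array row cannot say which start the transcripts used. A match is a run of letters and not a measured binding site.

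EFR3B had the highest log2 difference from control of all 14884 genes at both times. Its control arrays read 5.94, 5.63 and 5.25, the 12 h arrays 8.82, 9.02 and 8.76, and the 24 h arrays 8.86, 8.65 and 8.76. All 6 treated arrays stood far above all 3 controls, with a gap of 2.71 between the lowest treated and the highest control value, and the controls spread more widely than either treated group. The mean went from 5.61 ± 0.35 to 8.86 ± 0.14 and 8.76 ± 0.10 (SD, n = 3 each). These are log2 differences of 3.26 (SE 0.16) and 3.15 (SE 0.16), or 9.55-fold and 8.87-fold. The control values lay above the array medians of 4.92 to 4.96 but below the array upper quartiles of 6.63 to 6.67. Signal over background is unknown here, so the size of these folds is uncertain.

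The level of EFR3B did not separate by time under JQ1. Its 24 h values, from 8.65 to 8.86, overlapped the 12 h values, from 8.76 to 9.02. The difference of 24 h from 12 h was −0.11 (95% interval −0.46 to 0.25, limma adjusted p = 0.95). In order, the levels were highest at 12 h and 24 h, which do not differ beyond their spread, and lowest in control. Control 3 had the lowest EFR3B value, and without it the differences from control were 3.08 and 2.97.

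**Figure D1:**
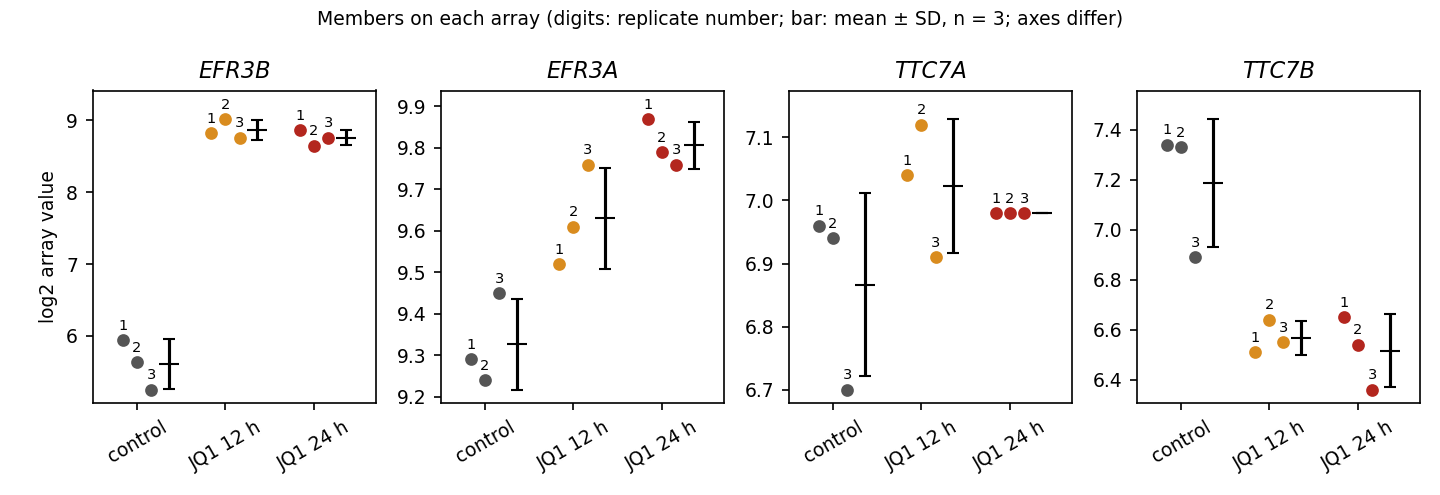
Log2 array values (vertical axis, a different range in each panel) of EFR3B, EFR3A, TTC7A and TTC7B on the 3 control, 3 JQ1 12 h and 3 JQ1 24 h arrays, with the mean and SD of each group as bars. EFR3B rises from below 6 to above 8.6, TTC7B lies between 6.36 and 6.65 under JQ1 against 6.89 to 7.34 in control, and control 3 is the control nearest to the treated arrays for EFR3A and TTC7B.

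EFR3A, the paralog of EFR3B that anchors the same complex, was higher at 24 h by a far smaller amount. Controls read 9.29, 9.24 and 9.45, the 12 h arrays 9.52, 9.61 and 9.76, and the 24 h arrays 9.87, 9.79 and 9.76. Neither treated group overlapped the controls, although at 12 h the gap was 0.07. At 24 h EFR3A rose 1.39-fold (log2 0.48, SE 0.09, limma adjusted p = 0.01), a call that held whichever single array was left out. At 12 h the difference was 0.30 (SE 0.09, adjusted p = 0.077) and was not called, but it was called without control 3 (0.36, adjusted p = 0.019). The step from 12 h to 24 h was 0.18 (95% interval −0.02 to 0.38, adjusted p = 0.77). Set against all genes, 4.99% had a higher difference than EFR3A at 24 h.

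The 2 EFR3 genes thus changed unequally. Within each array, EFR3B minus EFR3A was −3.35, −3.60 and −4.20 in control, −0.70, −0.59 and −1.0 at 12 h and −1.02, −1.13 and −0.99 at 24 h. The change of this difference, 2.96 at 12 h and 2.67 at 24 h, is a description because EFR3B was chosen for its rise. Its size carries the same uncertainty as the folds of EFR3B. The 2 rows are read by different probes, so the sign of the difference does not say which gene has more RNA.

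TTC7B, one of the alternative scaffold subunits that hold PI4KA to EFR3, fell. It read 7.34, 7.33 and 6.89 in control, 6.51, 6.64 and 6.55 at 12 h, and 6.65, 6.54 and 6.36 at 24 h. Every treated array lay below every control, with a gap of 0.25 before rounding, and control 3 was the control closest to them. TTC7B fell 1.54-fold at 12 h (log2 −0.62, SE 0.13, limma adjusted p = 0.021) and 1.59-fold at 24 h (−0.67, SE 0.13, adjusted p = 0.012). The difference between the times was −0.05 (95% interval −0.34 to 0.24, adjusted p = 0.98). At 12 h 3.46% of all genes had a lower difference, and at 24 h 3.83% did.

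Without control 3 the fall of TTC7B was −0.77 at 12 h (adjusted p = 5.5e-04) and −0.81 at 24 h (3.7e-04). Dropping control 1, control 2 or a single array of the 12 h group ended the 12 h call (adjusted p up to 0.084). Dropping JQ1 24 h replicate 3 ended the 24 h call (0.056).

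TTC7A, the other scaffold subunit, did not pass the test. Its values were 6.96, 6.94 and 6.70 in control, 7.04, 7.12 and 6.91 at 12 h, and 6.98 on each of the 24 h arrays. The 12 h values overlapped the controls, and the 24 h values lay 0.01 above the highest control. Its differences from control were 0.16 (95% interval −0.05 to 0.36, adjusted p = 0.39) and 0.11 (−0.09 to 0.31, adjusted p = 0.53). Both intervals include 0. Without control 3 the differences of TTC7A were 0.07 and 0.03 (adjusted p = 0.67 and 0.89).

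The scaffold genes were also compared with each other within arrays. TTC7B minus TTC7A was 0.37, 0.39 and 0.19 in control, −0.53, −0.48 and −0.36 at 12 h, and −0.33, −0.43 and −0.62 at 24 h. The values of all 6 treated arrays lay below those of all 3 controls. As with the EFR3 pair, different probes read the genes, so only the change of the difference can be read and not its sign. The difference moved by −0.78 at each time, with an exact 2-sided permutation p of 0.10 each, the smallest that 3 against 3 arrays allow.

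Leaving EFR3B aside, 1 of the 3 tested members was called at 12 h (TTC7B lower) and 2 at 24 h (EFR3A higher, TTC7B lower). Over all genes 7.93% were called at 12 h (3.54% higher, 4.39% lower) and 11.5% at 24 h (5.17% higher, 6.34% lower). With dim genes left out, those with a mean below the median of all rows, the counts stayed at 1 and 2. Of the 10569 genes kept, 12.5% and 17.4% were called. The 3 members had median differences of 0.16 and 0.11, beside 0.01 over all genes at both times. At 12 h, 2 of the 3 members did not overlap between groups, 1 higher and 1 lower, beside 22.2% of all genes (11.3% higher, 10.9% lower). At 24 h all 3 did not, 2 higher and 1 lower, beside 26.1% (13.3% higher, 12.8% lower). The 12 h count was 2 without control 3, where 20.1% of all genes were called. It was 0 when control 1, control 2 or a single array of the 12 h group was dropped, where 3.65% to 4.07% of all genes were called. The 24 h count was 1 without JQ1 24 h replicate 3, beside 5.28% of all genes. Between 24 h and 12 h limma called none of the 4 members, and 1 gene of all 14884, or 0.00672%, was called in the lower direction and 0% in the higher (995 at an unadjusted p under 0.05). EFR3A was the 1 member whose 24 h values all lay above its 12 h values, but only before rounding, since both groups hold a 9.76. Over all genes 12.9% had no overlap between the times (5.76% higher, 7.11% lower).

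Other genes of the PI4P pathway were counted from 9 lists made by role, of 101 genes in all, of which 33 were measured. No phospholipase C or class I PI3K gene of the lists was among them. Over these 33 genes, 3 rose and 2 fell at 12 h, and 3 rose and 4 fell at 24 h. The share called was 15.2% and 21.2%, beside 7.93% and 11.5% of all genes, and the median difference was 0.01 and 0.02, beside 0.01 over all genes. With dim genes left out of the fit the counts stayed at 5 and 7, beside 12.5% and 17.4% of the 10569 genes kept. The share called was thus higher among the genes kept, for which the fit and its adjustment were redone. The reason for this was not tested. The 12 h count of 5 became 13 without control 3, beside 20.1% of all genes. It became 2 or 3 when control 1 or 2, an array of the 12 h group or JQ1 24 h replicate 3 was dropped, beside 3.65% to 5.88% of all genes. The 24 h count of 7 became 3 without control 2 or JQ1 24 h replicate 3 (6.95% and 5.28% of all genes), and 4 without JQ1 12 h replicate 2 or JQ1 24 h replicate 1 (9.12% and 6.14%). The list counts and the share of all genes called moved in the same direction in these settings with an array dropped. Without JQ1 24 h replicate 1, however, the 12 h count rose to 6 while the share of all genes fell to 6.19%.

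TMEM150A, a membrane protein that binds the PI4KA complex, was the only 1 of 3 accessory genes with a row, and the hyccin genes HYCC1 and HYCC2 were not analysed here. It read 7.06, 7.28 and 6.67 in control, 7.21, 7.07 and 7.15 at 12 h, and 7.51, 7.04 and 7.24 at 24 h. The groups overlapped, and its differences were 0.14 (adjusted p = 0.73) and 0.26 (adjusted p = 0.39). Without control 3 they were −0.03 and 0.09 (adjusted p = 0.94 and 0.75), so the 12 h difference turned in sign.

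Of the other PI 4-kinases and their partners 6 of 7 were measured, and 1 fell at both times. This is 16.7% of the 6 at each time, beside 7.93% of all genes called at 12 h and 11.5% at 24 h. The gene that fell was NCS1, neuronal calcium sensor 1, which binds the Golgi kinase PI4KB. NCS1 read 8.28, 8.42 and 8.71 in control, 7.83, 7.87 and 7.76 at 12 h, and 7.69, 7.58 and 7.30 at 24 h. All treated arrays lay below all controls, and here control 3 was the control farthest from them. NCS1 fell 1.57-fold at 12 h (log2 −0.65, SE 0.13, adjusted p = 0.019) and 1.92-fold at 24 h (−0.94, SE 0.13, adjusted p = 0.0026). Dropping control 2 or a single array of the 12 h group ended the 12 h call (adjusted p up to 0.071), and the 24 h call held whichever array was left out. PI4K2B, a PI 4-kinase of endosomal membranes, differed by 0.40 at 12 h (adjusted p = 0.098) and 0.16 at 24 h (0.51). Without control 3 it was called at 12 h (0.52, adjusted p = 0.0089) and not at 24 h (0.28, 0.11). PIP5KL1 was the only 1 of 7 PIP kinase genes measured and differed by −0.16 and −0.02 (adjusted p = 0.64 and 0.96). Without control 3 its differences were −0.36 (adjusted p = 0.021, called) and −0.22 (0.14).

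Of the genes that make and carry phosphatidylinositol 5 of 10 were measured, and 1 rose. That is 20% at each time, beside 7.93% of all genes called at 12 h and 11.5% at 24 h. CDIPT, the phosphatidylinositol synthase that makes the substrate of PI4KA, read 9.83, 9.75 and 9.52 in control, 10.21, 10.10 and 10.11 at 12 h, and 10.29, 9.99 and 10.09 at 24 h. The groups did not overlap. CDIPT rose 1.36-fold at 12 h (log2 0.44, SE 0.11, adjusted p = 0.037) and 1.34-fold at 24 h (0.42, SE 0.11, adjusted p = 0.033). These calls were narrow. The first ended when any single array was dropped other than control 3 or the first and second 24 h arrays (adjusted p up to 0.12). The second ended without control 2, without 12 h replicate 2 or 3, and without 24 h replicate 1 or 3 (up to 0.11). CDS2, which makes the CDP-diacylglycerol that CDIPT uses, differed by 0.02 and 0.27 (adjusted p = 0.96 and 0.21), and without control 3 by −0.12 and 0.13 (0.43 and 0.40).

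Among genes that remove PI4P or tether the endoplasmic reticulum to other membranes 12 of 13 were measured, and 1 rose. The share called, 8.33% at each time, was near or below that of all genes, 7.93% at 12 h and 11.5% at 24 h. ESYT2, an extended synaptotagmin that tethers the reticulum to the plasma membrane, read 9.35, 9.27 and 9.43 in control, 9.88, 9.88 and 9.80 at 12 h, and 9.93, 9.80 and 9.77 at 24 h. The treated arrays were all above the controls and close together. It rose 1.42-fold at 12 h (log2 0.50, SE 0.08, adjusted p = 0.0055) and 1.40-fold at 24 h (0.48, SE 0.08, adjusted p = 0.0048), and both calls held whichever array was left out. GRAMD1A, a sterol carrier at such contacts, differed by −0.29 and −0.38 (adjusted p = 0.21 and 0.085) and was called lower at both times without control 3 (−0.43 and −0.52, adjusted p = 0.0076 and 0.0029).

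Of the inositol 5-phosphatase list 6 of 11 were measured. At 12 h 1 rose (16.7%, beside 7.93% of all genes called). At 24 h 1 rose and 1 fell (33.3%, beside 11.5%). INPP5F, which despite its name removes the 4-phosphate of PI4P, read 7.64, 7.61 and 7.46 in control, 7.95, 8.10 and 8.21 at 12 h, and 7.92, 7.90 and 7.88 at 24 h. It rose 1.43-fold at 12 h (log2 0.52, SE 0.09, adjusted p = 0.0084) and 1.26-fold at 24 h (0.33, SE 0.09, adjusted p = 0.038). Dropping any single array other than 12 h replicates 1 and 3 ended the 24 h call (adjusted p up to 0.11). Without control 3 the 24 h difference was 0.28 (adjusted p = 0.056). OCRL, the 5-phosphatase of phosphatidylinositol 4,5-bisphosphate mutated in Lowe syndrome, read 8.63, 8.63 and 8.52 in control, 8.12, 8.13 and 8.37 at 12 h, and 8.39, 8.14 and 8.02 at 24 h. OCRL fell at 24 h (−0.41, SE 0.11, adjusted p = 0.043) and differed by −0.39 at 12 h (adjusted p = 0.067). Its 24 h call ended without control 1 or 2, without 12 h replicate 1 or 2, and without 24 h replicate 2 or 3 (up to 0.15), and its 12 h difference was called without control 3 (−0.43, adjusted p = 0.035) or without 24 h replicate 1.

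EFR3 proteins depend on palmitoylation for their place in the membrane, so enzymes that add or remove palmitate were listed as well. Of 29 such genes 2 were measured, both thioesterases, and the palmitoyltransferases were not analysed here. Of these 2 genes, 1 was called lower at 12 h and 2 at 24 h, beside 7.93% and 11.5% of all genes called. LYPLA1, a cytosolic thioesterase that takes palmitate off proteins, read 8.22, 8.40 and 8.41 in control, 7.66, 8.02 and 7.92 at 12 h, and 7.81, 8.04 and 7.88 at 24 h. It fell 1.39-fold and 1.35-fold (log2 −0.48 and −0.44, SE 0.11 each, adjusted p = 0.03 and 0.033). Its 12 h call ended without control 1 or 2, without 12 h replicate 1 or 3, and without 24 h replicate 3 (adjusted p up to 0.10). Its 24 h call ended without control 2, without 12 h replicate 3, and without 24 h replicate 1 or 3 (up to 0.12). PPT1, its lysosomal counterpart, read 10.05, 10.07 and 10.18 in control, 9.89, 9.95 and 9.93 at 12 h, and 9.76, 9.56 and 9.64 at 24 h. PPT1 fell at 24 h (−0.45, SE 0.08, adjusted p = 0.0067), a call that held whichever array was left out, and differed by −0.18 at 12 h (adjusted p = 0.22).

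**Figure D2:**
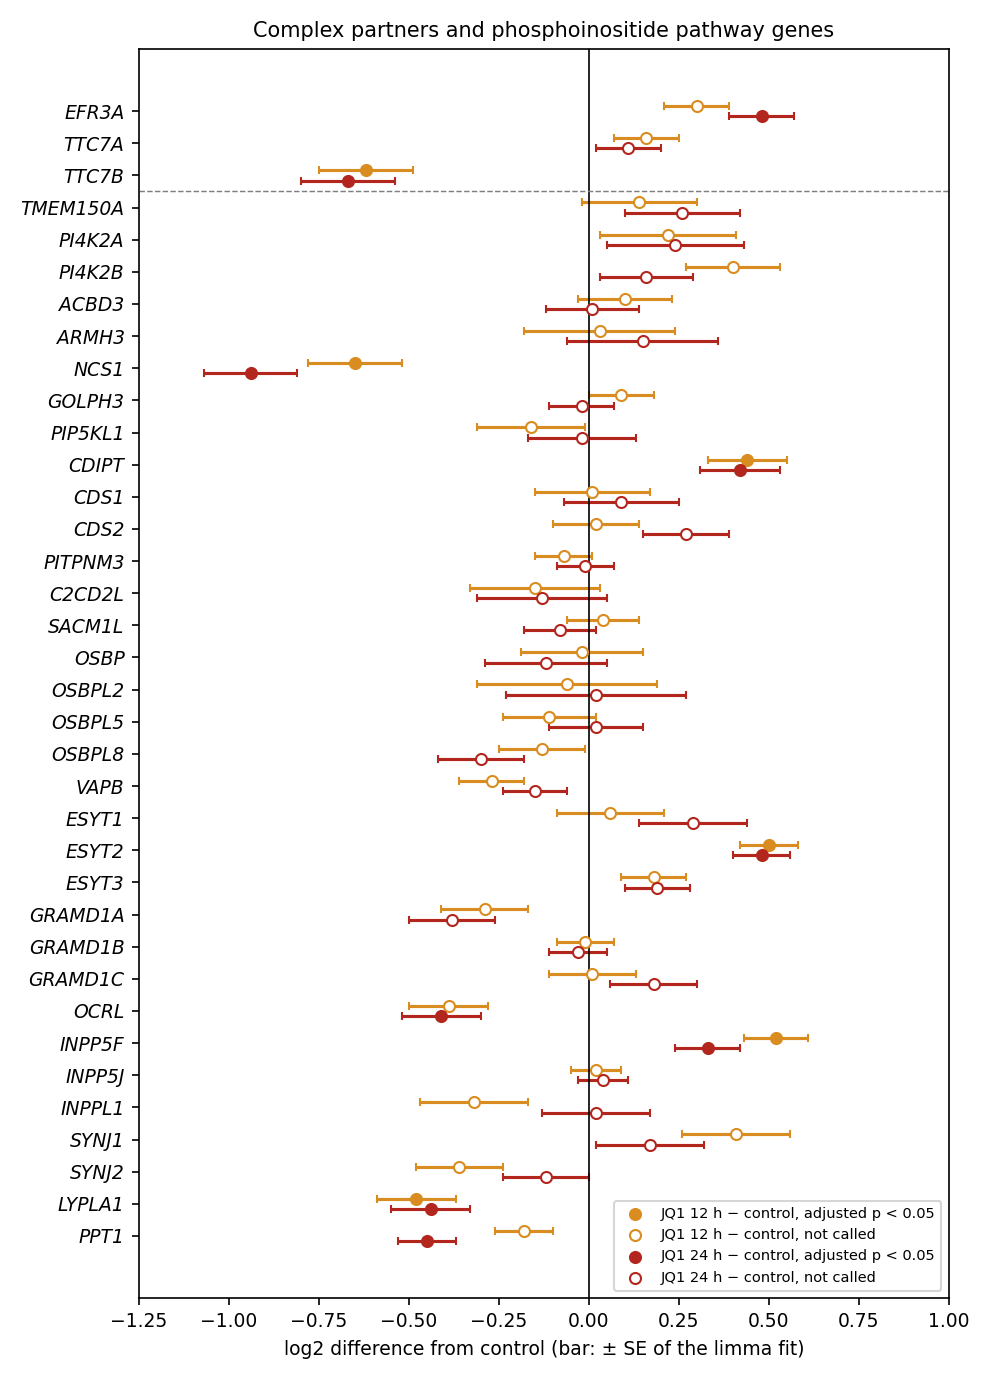
Log2 difference from control (horizontal axis, bars ± SE of the limma fit) at 12 h and 24 h for the 3 tested complex members, above the dashed line, and for the 33 measured pathway genes. Filled points had an adjusted p under 0.05. NCS1 and TTC7B lie farthest to the left, and ESYT2, INPP5F, EFR3A and CDIPT have the filled points on the right.

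Genes beside EFR3B on chromosome 2 were read to see whether they shifted with it. The 4 measured genes on each side, in the RefSeq order of GRCh38.p14, were PTRHD1, CENPO, ADCY3 and DNAJC27-AS1 on the start side and POMC, DNMT3A, MIR1301 and ASXL2 on the far side. No neighbour had a difference above 0.48. DNAJC27-AS1 and POMC, the measured genes next to EFR3B on either side, differed by −0.04 and −0.05 at 12 h and by −0.04 each at 24 h (adjusted p from 0.73 to 0.86). POMC, the precursor of the melanocortin peptides, read between 3.55 and 3.65 on the 9 arrays, and DNAJC27-AS1 between 4.27 and 4.46. Both rows lay below the array medians of 4.92 to 4.96, so they may be too dim to show whether these genes shifted.

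DNMT3A, a de novo DNA methyltransferase, was the neighbour called lower. It read 6.92, 6.83 and 6.70 in control, 6.29, 6.37 and 6.59 at 12 h, and 6.51, 6.44 and 6.31 at 24 h. The groups did not overlap. DNMT3A fell by 0.40 at each time (SE 0.10, adjusted p = 0.045 and 0.037). Dropping any single array other than control 3 and 12 h replicate 3 ended the 12 h call (adjusted p up to 0.16). The 24 h call ended without control 1 or 2, without 12 h replicate 2, and without any single 24 h array (up to 0.14).

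PTRHD1 rose at 24 h (0.48, SE 0.10, adjusted p = 0.018) and differed by 0.28 at 12 h (0.15). Its 24 h call was lost without control 1, control 2 or JQ1 24 h replicate 3 (up to 0.069). ASXL2, a Polycomb-associated gene, differed by −0.36 and −0.32 (adjusted p = 0.075 and 0.095), ADCY3, an adenylyl cyclase, by −0.47 at each time (0.30 and 0.27), CENPO, a centromere protein gene, by 0.25 and 0.01 (0.53 and 0.98) and MIR1301 by −0.09 and −0.12 (0.66 and 0.47). Control 3 weighed on most of these values. Without it CENPO was called higher at 12 h (0.51, adjusted p = 0.0045) and differed by 0.27 at 24 h (0.077), and PTRHD1 was called higher at 12 h (0.36, 0.029). ASXL2 was then called lower at 12 h (−0.40, adjusted p = 0.039), whereas ADCY3 differed by −0.15 at each time (0.52 and 0.50) and MIR1301 by −0.14 and −0.18 (0.40 and 0.26). In all, 1 of 8 neighbours was called at 12 h and 2 at 24 h, beside 7.93% and 11.5% of all genes. The 12 h count was 4 without control 3, beside 20.1% of all genes. It was 0 without any other array except JQ1 12 h replicate 3, beside 3.65% to 7.18%. The 24 h count was 0 without control 1, control 2 or JQ1 24 h replicate 3 (5.28% to 6.95% of all genes), and 1 without JQ1 12 h replicate 2 or JQ1 24 h replicate 1 or 2 (6.14% to 9.12%).

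**Figure D3:**
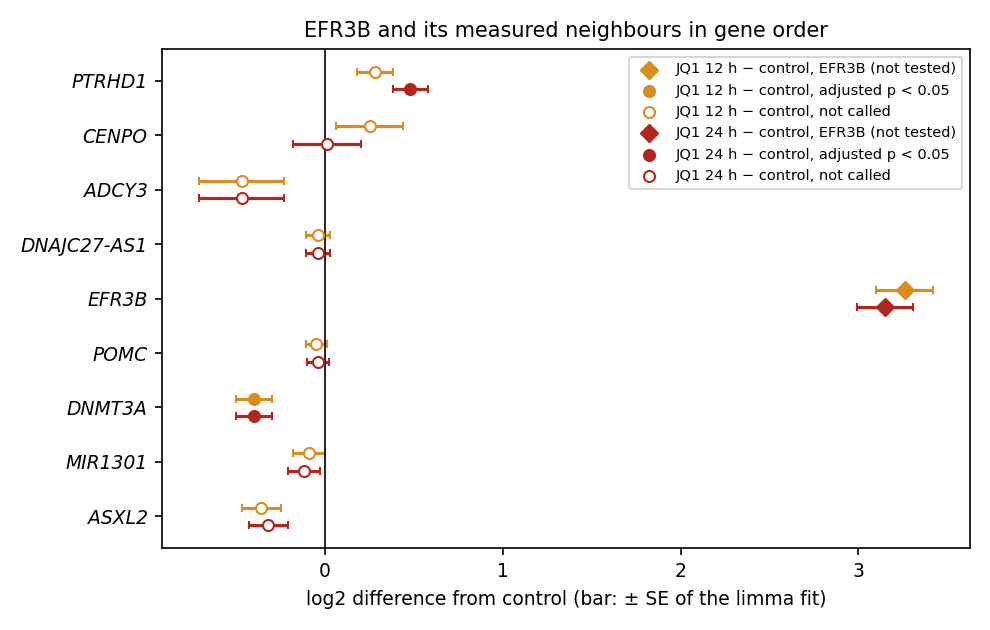
Log2 difference from control (horizontal axis, bars ± SE of the limma fit) at 12 h and 24 h for EFR3B and the 4 measured genes on each side of it, listed in chromosomal order. EFR3B stands above 3, while the neighbours lie between −0.47 and 0.48.

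The genes whose pattern was most like that of EFR3B were found by Pearson correlation over the 9 arrays, among 503 genes with an SD of at least 0.5. The arrays form groups, so the correlation is a description of shared differences between groups. It exceeded 0.95 for 20 genes and was below −0.95 for 19. The 8 highest were SDC2 (syndecan 2, r = 0.991), DGAT1 (a triglyceride synthesis enzyme, 0.991), the BET gene BRD2 (0.988), SESN3 (a sestrin, 0.987), SNX29 (a sorting nexin, 0.985), KIAA0513 (0.984), NXN (nucleoredoxin, 0.982) and the transcription factor gene KLF2 (0.976). The 4 lowest were TBL1XR1 (a corepressor subunit, −0.982), FST (follistatin, −0.981), the forkhead gene FOXF2 (−0.98) and ZNF532 (a zinc finger gene, −0.977).

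Of the 8 highest, SESN3 came nearest to EFR3B in size. SESN3 read 5.62, 5.63 and 5.26 in control, 8.19, 7.92 and 8.35 at 12 h and 8.18, 7.65 and 7.93 at 24 h, a difference of 2.65 and 2.41. The other 7 of the highest differed by 0.96 to 1.43 at 24 h. SDC2 went from 5.90, 5.86 and 5.86 to 7.18, 7.27 and 7.31 at 12 h and to 7.20, 7.03 and 7.23 at 24 h. DGAT1 read 7.87, 7.89 and 7.63, then 9.24, 9.08 and 9.08, then 9.29, 9.08 and 9.25, and its lowest control value was in control 3, as for EFR3B. Which genes ranked at the ends varied with the arrays and the measure used. Without control 3, 1 of the 12 genes stayed among them, and without control 2 it was 7. By Spearman rank correlation over all 9 arrays 1 of the 12 stayed. Among the complex genes, r with EFR3B was 0.82 for EFR3A, 0.67 for TTC7A and −0.86 for TTC7B.

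**Figure D4:**
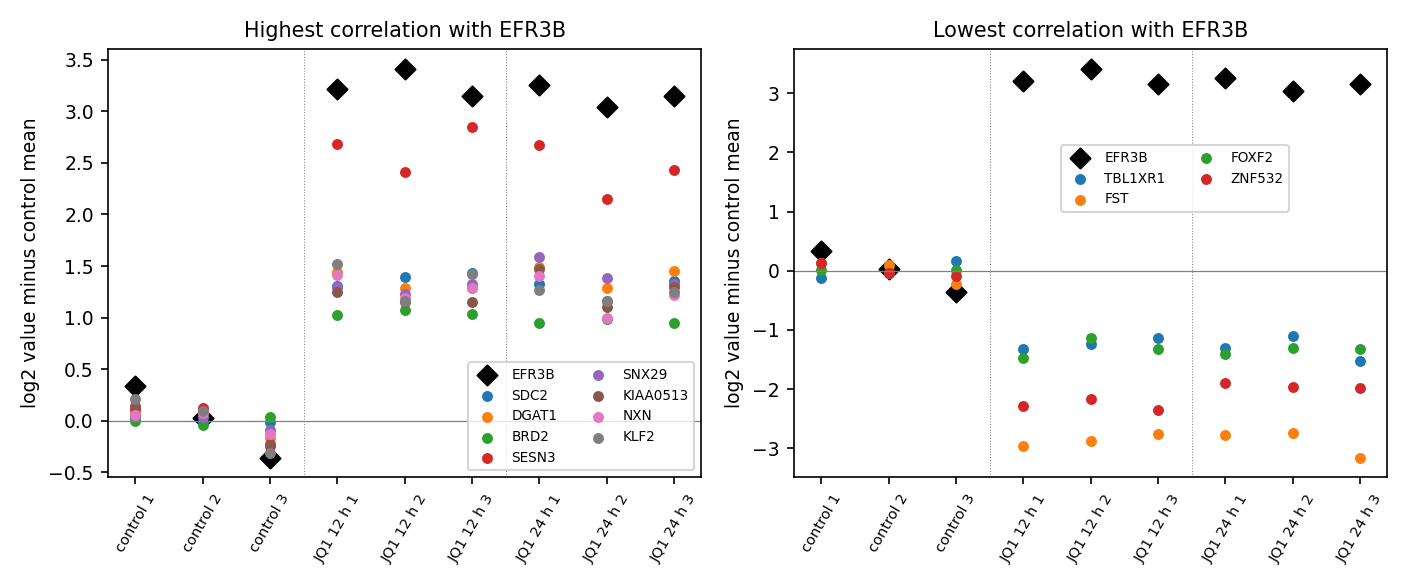
Log2 value minus the control mean (vertical axis) on each of the 9 arrays (horizontal axis) for EFR3B, as black diamonds, with the 8 genes of highest correlation on the left and the 4 of lowest correlation on the right. On the left SESN3 is nearest to EFR3B, and on the right FST has the lowest values, with differences of −2.86 at 12 h and −2.88 at 24 h.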

How the data were processed

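Total RNA of MDA-MB-231 cells was labelled and hybridised to Affymetrix Human Gene 2.0 ST arrays, per the labels. The authors deposited 1 table of 53617 rows and 9 arrays, taken as log2 values from their range (2.01 to 13.88). Transcriptome Analysis Console is named in the submitters' processing notes; its version, the background correction and the normalization are not given in the sources used here. Array medians lie between 4.92 and 4.96, so changes are relative to the other genes.

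Of the rows 16098 had 1 gene symbol, 0 several, and 37519 are unnamed here. The row with the highest mean stood for a gene, which left 14884. All 3 groups were fitted with limma 3.58.1 in R 4.3.3 (1 mean per group, eBayes without trend, 3.14 prior degrees of freedom), with Benjamini-Hochberg adjustment over all genes within each comparison. Genes with an adjusted p under 0.05 were called, and each adjusted p in the text is from this fit or, where an array is said to be left out, from the same fit without it. In simulated data for JQ1 12 h against control over 14884 genes, 26 of 50 genes shifted by 0.5 log2 were recovered and 46 of 50 shifted by 1. Only 50 genes were shifted at each size up to 3, whereas 1181 genes were called in the data at 12 h. The adjusted threshold therefore differs, and recovery in the data may differ from these counts.

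The members and lists were chosen with earlier results of these data known. Named genes were the members, TMEM150A, up to 4 called genes of each list (or the largest differences, to make up 2), 4 neighbours on each side of EFR3B and the 8 highest and 4 lowest correlations with it. Every promoter window came from RefSeq; of the 5 members 4 had one.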

Additional observations from a re-analysis of the deposited data

How the results depend on the processing

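Under the 18 alternatives the log2 difference of EFR3B was 3.08 to 3.42 at 12 h and 2.97 to 3.32 at 24 h. That of TTC7B was −0.77 to −0.54 and −0.81 to −0.59. Several alternatives, such as all rows tested or only the 2 groups compared, change only the spread or the adjustment. Under those a difference and its sign could not move, so the ranges rest on the other alternatives. Of 932 single-gene values under alternatives, 824 stayed on the same side of the threshold, 87 lost the call, 21 gained it and 0 called values changed sign. The count of tested members called at 12 h, 1, was 2 with quantile normalization, 2 with array weights and 0 with only the 2 groups compared, and 0 to 2 when an array was left out. The share of all genes called moved too, from 7.93% to 8.46%, 23.5% and 3.88% in those settings. The 24 h count was 1 to 2 when an array was left out. The pathway count at 12 h, 5, was 3 with all rows tested, 3 with only the 2 groups compared and 14 with array weights (4.68%, 3.88% and 23.5% of all genes), and 2 to 13 with an array left out (3.65% to 20.1% of all genes). At 24 h, 7 became 3 with all rows tested and 4 with only the 2 groups compared (7.53% and 6.68% of all genes), and 3 to 9 with an array left out (5.28% to 20.9%). The cause was not tested. Neighbour counts were 0 to 4 at 12 h and 0 to 2 at 24 h with an array left out. Of the 12 genes most like or unlike EFR3B, 1 stayed with Spearman rho, and 1 to 11 with an array left out.

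The replicate numbers are shared by the groups. Same-numbered arrays had deviations from their group means correlated between −0.32 and 0.22, with 2 of 9 pairs over 0.1. For differently numbered arrays the range was −0.27 to 0.29, with 7 of 18 pairs over 0.1. The numbers were therefore not taken as pairs. With the replicate block the pathway counts were 5 and 5, the member counts 1 and 2, and the calls of DNMT3A at both times and of INPP5F and OCRL at 24 h were lost. Without scanner files, signal over background is unknown here for dim rows such as POMC and DNAJC27-AS1.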
